A study of Mus musculus with 8 samples.

Results

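The VEGF and angiopoietin ligands and receptors were followed as 10 named genes: the ligands Vegfa, Vegfb, Vegfc, Angpt1 and Angpt2 and the receptors Kdr, Flt1, Flt4, Tek and Tie1. They were found by symbol among 24675 genes on the array, each as 1 row. All 10 were among the 12416 genes that exceeded the array's median on at least 4 of 8 arrays, and these were tested. The samples are ventral and dorsal aortic tissue of C57Bl/6 mouse embryos at embryonic day 12.5, with 4 arrays for each. Ventral tissue was cut from beneath the aorta and dorsal tissue from the space between aortic roof and notochord, both by laser microdissection of stained cryosections from the same embryos. No mutation or treatment is given for either group, and the labels do not say whether a replicate number marks 1 embryo or several. Expression was read on Affymetrix mouse Gene 2.0 ST arrays after amplification from an input of 200 to 1000 pg of total RNA. Values are log2 RMA intensities, a scale on which 1 unit is a doubling.

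VEGF ligands bind receptor tyrosine kinases on endothelial cells and drive their growth, survival and migration. Kdr (VEGFR2) carries most of the signal of Vegfa, Flt1 (VEGFR1) binds Vegfa tightly and acts largely as a decoy, and Flt4 (VEGFR3) is the receptor of Vegfc in lymphatic and sprouting endothelium. Angiopoietins act on the receptor Tek (Tie2), where Angpt1, made mostly by mesenchymal and perivascular cells, activates it and stabilises vessels. Angpt2, made by endothelium, can oppose Angpt1, and Tie1 is the partner receptor of Tek.

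Angpt1 was the member that differed most between the tissues. It was lower in ventral tissue by 1.40 on the log2 scale (a 2.64-fold difference), and its ventral and dorsal arrays did not overlap. Vegfa was also lower in ventral tissue, by a smaller amount and again without overlap. Kdr tended the other way, higher in ventral tissue in 3 of 4 replicate numbers, while Tek stood lower in ventral tissue in 3 of 4. The other 6 members differed by at most 0.21 log2 units either way. None of the 10 passed limma's moderated test, fitted with the replicate number as a block and a threshold of 0.05 on p-values adjusted over the 12416 genes by Benjamini-Hochberg. In that fit 0% of all tested genes passed, and without the block 0.0322% did, none of them a member.

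At an unadjusted p under 0.05 in limma, 2 of the 10 members (Angpt1 and Vegfa) were lower in ventral tissue, as were 4.18% of all tested genes, and 1 (Kdr) was higher, as were 4.08%. The ventral arrays lay wholly below the dorsal arrays for 2 of 10 members, against 2.38% of tested genes, and wholly above for 0, against 2.01%. That lack of overlap already makes these 2 members lower in 4 of 4 replicate numbers, as were 8.46% of tested genes. No member was higher in all 4, as were 7.93%. The median difference of the 10 members was 0.017, beside a median of -0.0039 over all tested genes. These shares are descriptions, since the genes were picked as a pathway with earlier results of these arrays known.

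**Figure D1:**
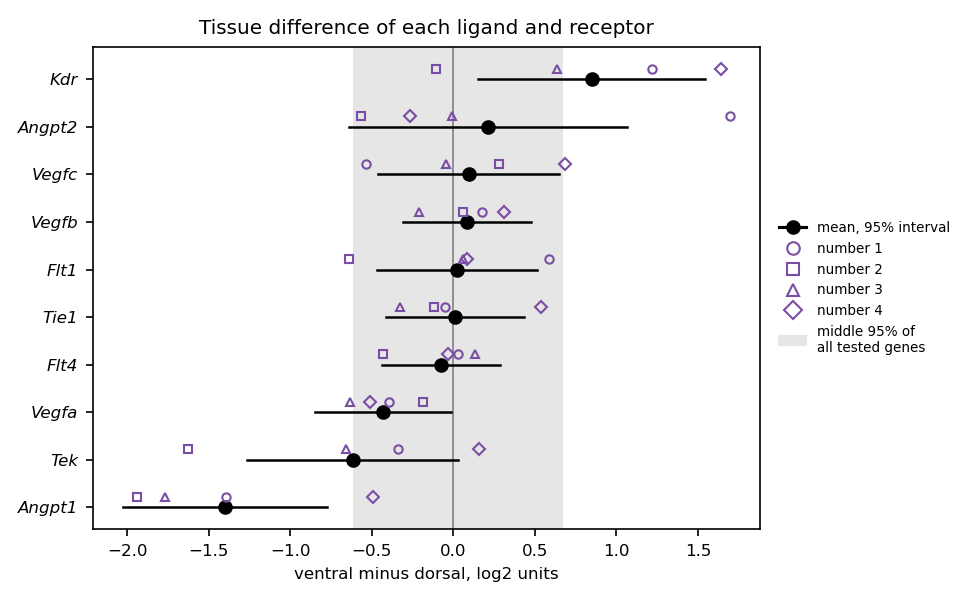
Ventral minus dorsal difference of each of the 10 genes on the log2 scale, with its 95% interval from limma (black, n = 4 arrays per tissue) and the difference within each replicate number (open symbols). Angpt1 at -1.40 and Kdr at 0.85 lie outside the grey band that holds the middle 95% of all 12416 tested genes (-0.62 to 0.67), and Tek lies at its lower edge.

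Start-site sequences are shown for Vegfa, Kdr and Tek, the members besides Angpt1 whose levels differed most between the tissues. RefSeq windows of 300 bases of assembly GRCm38.p6 matched 8 of the 10 members, and Angpt1 and Angpt2 had no match. Each is printed 5′ to 3′ along the gene's strand, and capitals mark matches on either strand to AGATAA (the GATA factor motif), GGGCGG (the GC box), ACGTG (the hypoxia response core) or CGGAAG (an ETS factor core). The windows are chr17:46032328-46032627 on the minus strand for Vegfa, chr5:75978406-75978705 on the minus strand for Kdr and chr4:94739039-94739338 on the plus strand for Tek. Vegfa has another window, not shown.
Vegfa: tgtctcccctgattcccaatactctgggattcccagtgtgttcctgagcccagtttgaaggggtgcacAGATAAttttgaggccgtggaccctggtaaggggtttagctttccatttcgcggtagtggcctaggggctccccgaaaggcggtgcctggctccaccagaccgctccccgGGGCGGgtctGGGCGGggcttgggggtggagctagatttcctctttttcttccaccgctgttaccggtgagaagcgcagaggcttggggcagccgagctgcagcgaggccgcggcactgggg
Kdr: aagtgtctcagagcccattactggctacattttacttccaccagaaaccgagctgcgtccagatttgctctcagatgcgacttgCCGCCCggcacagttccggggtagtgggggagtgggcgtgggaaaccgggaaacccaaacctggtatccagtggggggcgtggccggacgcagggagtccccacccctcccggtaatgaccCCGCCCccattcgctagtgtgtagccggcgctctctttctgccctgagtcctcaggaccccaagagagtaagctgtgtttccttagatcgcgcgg
Tek: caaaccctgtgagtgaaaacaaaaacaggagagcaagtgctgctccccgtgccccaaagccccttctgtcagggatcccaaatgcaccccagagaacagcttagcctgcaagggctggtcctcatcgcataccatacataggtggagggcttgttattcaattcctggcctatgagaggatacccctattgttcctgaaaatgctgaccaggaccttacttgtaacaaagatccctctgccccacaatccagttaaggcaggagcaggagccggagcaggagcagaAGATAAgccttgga
The Vegfa window holds 2 GC boxes and 1 GATA motif, the Kdr window 2 GC boxes, and the Tek window 1 GATA motif and no GC box. Over all 32851 windows, 35.7% hold the GC box, 11.2% the GATA motif, 19.6% the hypoxia core and 16.9% the ETS core. The ETS letters CGGAAG occur in the window of Tie1 alone among members, and the hypoxia letters only in the Vegfa window not shown. Other forms of ETS site were not searched, so their absence from a window is not shown. These matches describe letters and say nothing of binding.

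Arrays across the study were alike in their overall distribution, with medians between 3.59 and 3.65, and correlated across tested genes at r = 0.907 to 0.957 (genes are not independent replicates). Endothelial markers gave signal in both tissues. Of 20 such markers 16 were tested, and the mean of these 16 lay between 5.17 and 5.51 in ventral arrays and between 4.82 and 5.62 in dorsal arrays. Only markers that passed the filter enter this mean, so its height above the array medians is partly set by that choice. The markers Esam, Cldn5, Icam2 and Clec14a did not exceed the array median on 4 arrays. Nor did the liver markers Alb, Afp, Ttr and Ahsg, so that 3 of the 7 liver markers on the array were tested. One array stood apart in liver and red cell genes: in dorsal replicate 4 the mean of 3 tested liver genes was 8.58 and that of 8 red cell genes 8.03. The other dorsal arrays had 4.39 to 4.52 for liver genes and 5.94 to 6.08 for red cell genes. The ventral arrays had 4.28 to 6.02 and 5.85 to 6.80, with ventral replicate 4 the highest for both lists. The endothelial mean was lowest in dorsal replicate 4 as well and highest, at 5.62, in dorsal replicate 2. The mean of 9 sympathetic and neuronal genes also varied widely, at 7.61, 4.74, 6.98 and 5.53 in ventral replicates 1 to 4, against 6.81, 5.69, 5.07 and 5.22 in dorsal replicates 1 to 4. It was highest in ventral replicate 1, which also had the highest ventral Kdr and Angpt2, and its part in those values was not tested. In such bulk samples fewer cells of a type and less RNA per cell cannot be told apart.

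The ligands are taken first. Vegfa, the main growth factor of blood vessels, had 5.53, 5.79, 5.54 and 5.48 in ventral replicates 1 to 4, against 5.93, 5.97, 6.18 and 5.99 in dorsal replicates 1 to 4. The highest ventral array thus lay 0.14 below the lowest dorsal array. The means were 5.58 ± 0.14 in ventral and 6.02 ± 0.11 in dorsal tissue (SD, n = 4), a difference of -0.43 (SE 0.18, 95% interval -0.85 to -0.017). In limma's test the unadjusted p was 0.0432 and the adjusted p 0.589. Of all tested genes, 6.14% had a more negative difference than Vegfa.

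Vegfb, a ligand of Flt1 linked to the heart and to fatty acid uptake, overlapped between the tissues. It ranged from 6.95 to 7.13 in ventral arrays and from 6.78 to 7.20 in dorsal arrays, with a difference of 0.083 (95% interval -0.31 to 0.47). Vegfc, the growth factor of lymphatic vessels, ranged from 4.87 to 5.57 in ventral and from 4.88 to 5.41 in dorsal arrays. Its difference of 0.095 (95% interval -0.46 to 0.65) was the mean of replicate numbers that went both ways, at -0.54, 0.28, -0.045 and 0.68 for numbers 1 to 4. Both intervals hold differences as large in size as that of Vegfa.

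Angpt1 had 4.37, 3.63, 4.62 and 4.73 in ventral replicates 1 to 4, against 5.77, 5.57, 6.39 and 5.22 in dorsal replicates 1 to 4. Every dorsal array was higher than every ventral array, with a gap of 0.49 between the groups. Ventral replicate 2 lay just under the median of its own array, where background limits how low a value can go. The means were 4.34 ± 0.50 in ventral and 5.74 ± 0.49 in dorsal tissue (SD, n = 4). The difference was -1.40 (SE 0.27, 95% interval -2.03 to -0.77), with an unadjusted p of 0.00109 and an adjusted p of 0.211 in limma. By p it ranked 64 of 12416 tested genes, and 44 genes (0.354%) had a more negative difference.

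Within replicate numbers 1 to 4 the Angpt1 difference was -1.40, -1.94, -1.77 and -0.49. Number 4, the least of them, includes the dorsal array with high liver and red cell genes, and without that number Angpt1 differed by -1.70 (SE 0.22). Without number 1, 2 or 3 it differed by -1.40, -1.22 or -1.28. The part of the liver and red cell content in these values was not tested. Genes of the sclerotome and its cartilage, the mesenchyme that forms vertebrae, had lower ventral values beside Angpt1. Of 12 such markers 11 were tested and all 11 were lower in ventral tissue, with a list mean of 4.52 to 4.78 in ventral and 5.93 to 7.12 in dorsal arrays. All 11 had an unadjusted p under 0.05 in limma, and after adjustment 0 were called with the block and 2 without it. Matn1, the remaining marker, was under the median on all arrays. The part of this mesenchyme in the Angpt1 difference was not tested.

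Angpt2 overlapped between the tissues. It had 5.53, 4.40, 4.42 and 3.94 in ventral replicates 1 to 4, against 3.83, 4.97, 4.43 and 4.20 in dorsal replicates 1 to 4. Ventral replicate 1 alone was high, and the difference of 0.21 (SE 0.36, 95% interval -0.64 to 1.07) became -0.28 without replicate number 1. Within each array, Angpt1 minus Angpt2 was lower in ventral tissue in 4 of 4 replicate numbers, at -0.23 ± 0.89 in ventral and 1.38 ± 0.68 in dorsal tissue (SD, n = 4), though the groups overlapped. Of the difference of -1.61 between these means, -1.40 is that of Angpt1, which alone was already lower in 4 of 4, and no test is given. Such a subtraction removes what raises or lowers a whole array, though array medians were already close (3.59 to 3.65). Its absolute size has no meaning because 2 genes have different probes.

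**Figure D2:**
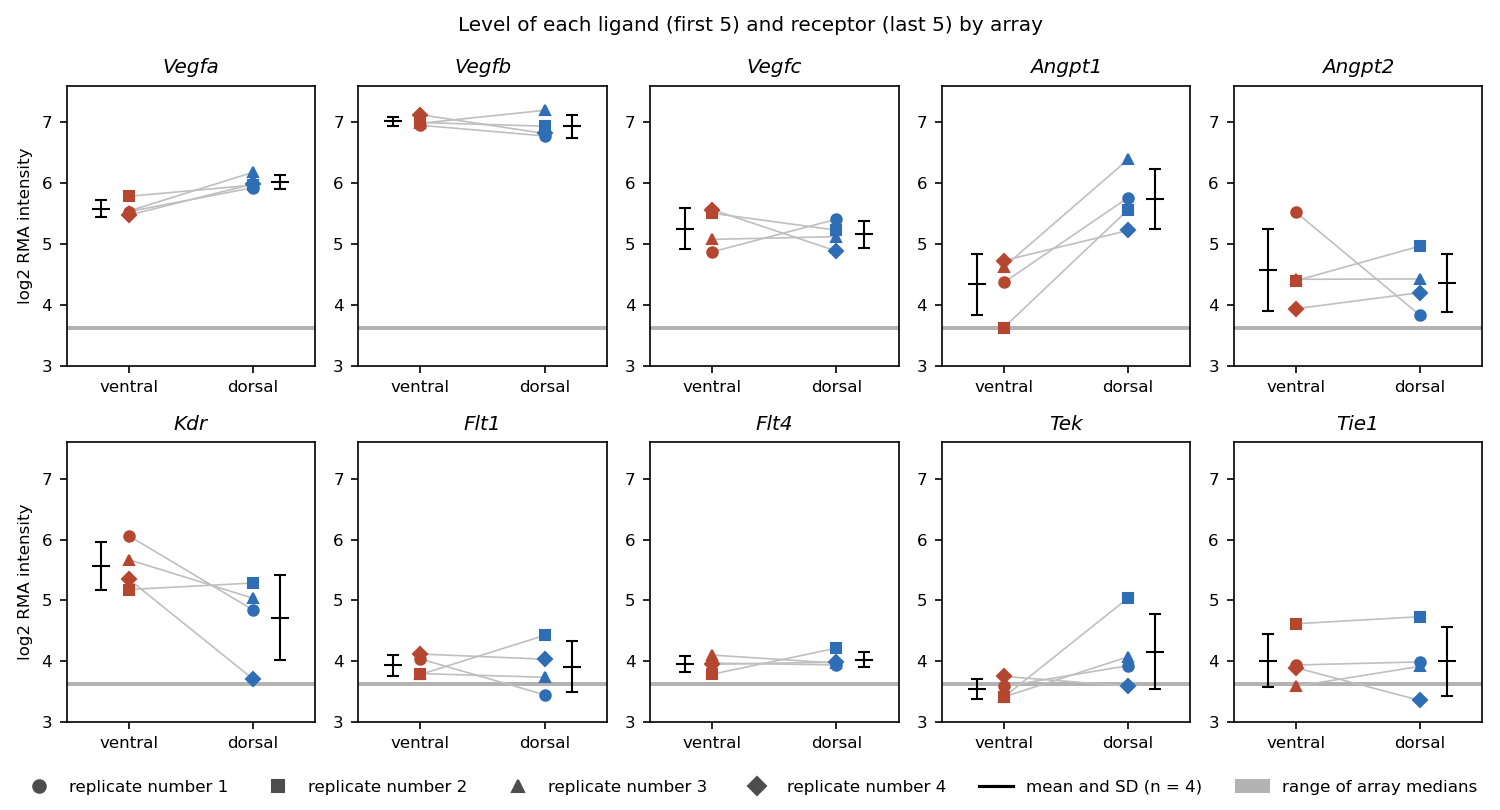
Log2 RMA intensity of the 5 ligands (upper row) and 5 receptors (lower row) on every array, with ventral tissue on the left and dorsal tissue on the right of each panel. Lines join arrays of 1 replicate number, black bars are the mean and SD of 4 arrays, and the grey band is the range of array medians (3.59 to 3.65). Angpt1 and Vegfa separate without overlap, while many values of Flt1, Flt4, Tek and Tie1 lie near the band, with Tek in dorsal replicate 2 (5.04) and Tie1 in ventral (4.61) and dorsal (4.73) replicate 2 well above it.

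Among the receptors, Kdr had 6.06, 5.18, 5.67 and 5.35 in ventral replicates 1 to 4, against 4.84, 5.28, 5.04 and 3.71 in dorsal replicates 1 to 4. Only ventral replicate 2 lay inside the dorsal range, and dorsal replicate 4 was far below the other dorsal arrays. At 3.71 it lay just above the median of its own array (3.65), where background limits how low a value can go. The means were 5.56 ± 0.39 in ventral and 4.72 ± 0.70 in dorsal tissue (SD, n = 4), a 1.80-fold difference of 0.85 (SE 0.30, 95% interval 0.15 to 1.55). The unadjusted p was 0.0238 and the adjusted p 0.517 in limma. Dorsal replicate 4 carried part of this gap: without replicate number 4 Kdr differed by 0.58, and without that single array, in the fit with no block, by 0.51.

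Tek had 3.58, 3.41, 3.41 and 3.75 in ventral replicates 1 to 4, against 3.93, 5.04, 4.07 and 3.59 in dorsal replicates 1 to 4. It exceeded the array median on 1 ventral and 3 dorsal arrays, the fewest that the filter allows, so its difference is bounded by background. Dorsal replicate 2, the array with the highest endothelial mean, was the highest by far. The difference was -0.62 (SE 0.27, 95% interval -1.27 to 0.030), with an unadjusted p of 0.0587 and an adjusted p of 0.622 in limma. Without replicate number 2 it was -0.28 and without number 4 it was -0.88. Tek and its ligand Angpt1 were thus both at their lower mean in ventral tissue, although only Angpt1 separated the groups.

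Tie1, the partner of Tek, ranged from 3.59 to 4.61 in ventral arrays and from 3.35 to 4.73 in dorsal arrays. Its difference was 0.011 (95% interval -0.41 to 0.43), and replicate number 2 held the highest Tie1 value of each tissue. Flt1 ranged from 3.78 to 4.12 in ventral and from 3.45 to 4.42 in dorsal arrays, with a difference of 0.023 (95% interval -0.47 to 0.52). Flt4 ranged from 3.78 to 4.10 in ventral and from 3.94 to 4.21 in dorsal arrays, with a difference of -0.076 (95% interval -0.44 to 0.29). Most values of these 3 genes lay near the array medians, where background bounds a difference, but Tie1 on both arrays of replicate number 2 and Flt1 in dorsal replicate 2 stood clear of them.

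The receptors can be set against the endothelial content of each array. After each array was centred on its tissue mean, the mean of Kdr, Flt1, Tek and Tie1 tracked the mean of the 16 endothelial markers at r = 0.91 over 8 arrays. Dorsal replicates 2 and 4, with the highest and lowest endothelial mean (5.62 and 4.82), weigh most in this r. The ventral arrays spanned only 5.17 to 5.51 and show the relation less clearly. All arrays share their amplification and processing, and the value is given as a description. Kdr minus the endothelial mean was 0.24 ± 0.26 in ventral and -0.53 ± 0.39 in dorsal tissue (SD, n = 4), and the groups did not overlap. Tek minus the endothelial mean was -1.78 ± 0.18 in ventral and -1.09 ± 0.34 in dorsal tissue, again without overlap and in the other direction, though Tek was under the array median on 3 of 4 ventral arrays. Both genes overlapped before the subtraction, so these separations rest on the endothelial means of single arrays. The low mean of dorsal replicate 4 placed its Tek (3.59) at -1.23, and the high mean of dorsal replicate 2 placed its Kdr (5.28) at -0.34. The share of all tested genes that separate in this way was not computed. Flt1, Flt4 and Tie1 relative to that mean were each higher in ventral tissue in 2 of 4 replicate numbers and lower in 2. With the endothelial mean as a covariate and no block, limma gave differences of 0.70 (SE 0.18, adjusted p = 0.27) for Kdr and -0.72 (SE 0.18, adjusted p = 0.244) for Tek.

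The mean differences of the VEGF pair, ligand and main receptor, had opposite signs, though neither passed limma's test (adjusted p 0.589 for Vegfa and 0.517 for Kdr). Kdr overlapped between the tissues, and in replicate number 2 both genes were lower in ventral tissue (Vegfa -0.18, Kdr -0.11). Vegfa minus Kdr within an array was 0.020 ± 0.48 in ventral and 1.30 ± 0.69 in dorsal tissue (SD, n = 4), lower in ventral tissue in 4 of 4 replicate numbers without overlap. These genes were paired after their values had been seen, so no test is given.

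**Figure D3:**
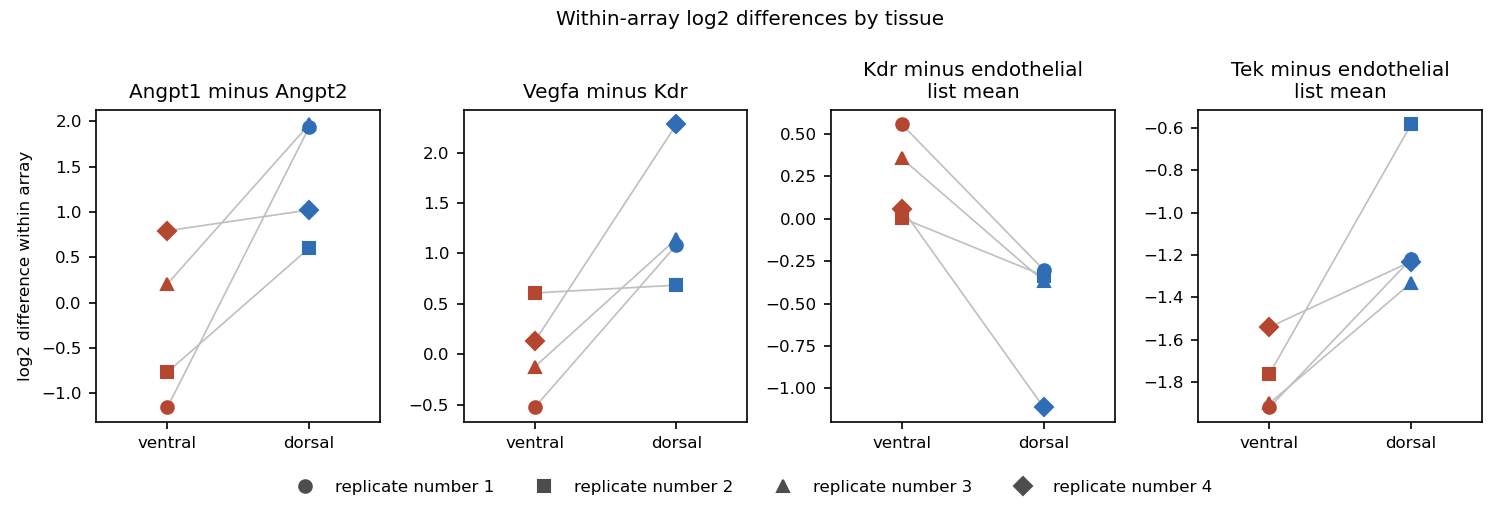
Within-array log2 differences on each array, with ventral tissue on the left and dorsal tissue on the right, and lines joining arrays of 1 replicate number. Angpt1 minus Angpt2, Vegfa minus Kdr, and Tek minus the mean of 16 endothelial markers were lower in ventral tissue in every replicate number, and Kdr minus that endothelial mean was higher.

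The wider pathway was read from lists of further genes, in which 0 genes passed the test with the block (limma, adjusted p under 0.05). Of 11 other ligands, co-receptors and modulators 7 were tested, 6 of them higher and 1 lower in ventral tissue, with a median difference of 0.42. The ligand Vegfd, which binds Flt4 and in humans also Kdr, stood at 4.69 ± 0.63 in ventral and 4.03 ± 0.45 in dorsal tissue (SD, n = 4) and was higher in 4 of 4 replicate numbers (0.66, SE 0.20, unadjusted p = 0.0135). Adamts1, a protease that binds Vegfa and restrains it, ranged from 5.78 to 6.81 in ventral and from 4.79 to 5.45 in dorsal arrays, a difference of 1.31 (SE 0.29, unadjusted p = 0.00244, adjusted p = 0.251). Among all settings it passed limma's test only in the fit with no block and without ventral replicate 1.

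The co-receptors were noisier. Nrp1, which presents Vegfa to Kdr, differed by 0.58 (SE 0.38) and ranged from 4.51 to 6.77 in ventral arrays, and Nrp2, the partner of Flt4, differed by 0.27 (SE 0.21). Ptprb, the phosphatase that restrains Tek, differed by 0.028 (SE 0.18). Placental growth factor (Pgf) lay under the array median on all 8 arrays and was not tested.

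Genes downstream of the receptors went both ways. Of 11 intracellular mediators 7 were tested, 4 higher and 3 lower in ventral tissue, none at an unadjusted p under 0.05. Foxo1, the transcription factor held inactive by Tek signalling, differed by 0.23 (SE 0.17), the kinase Akt1 by 0.31 (SE 0.18) and the adaptor Nck1 by 0.15 (SE 0.19). Of 12 genes induced by VEGF or found in tip cells 7 were tested, 5 higher and 2 lower. Egr3, an early response gene of VEGF in endothelium, ranged from 3.87 to 4.18 in ventral and from 3.65 to 3.81 in dorsal arrays (0.33, SE 0.13, unadjusted p = 0.0399). These values lie near the array medians (3.59 to 3.65), where background bounds a difference. The apelin receptor Aplnr differed by -0.74 (SE 0.43) and the netrin receptor Unc5b by 0.42 (SE 0.20). Dll4, the Notch ligand of tip cells, lay under the array median on all arrays.

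Oxygen-regulated genes, among which Vegfa is counted, went both ways by small amounts. Of 15 genes of oxygen sensing and hypoxia response 13 were tested, 6 higher and 7 lower in ventral tissue, with a median difference of -0.0040 and none at an unadjusted p under 0.05. Hif1a, the oxygen-labile factor that induces Vegfa, differed by -0.21 (SE 0.15) and Epas1, its endothelial relative, by 0.45 (SE 0.40). Egln3 and Ankrd37, both induced at low oxygen, differed by 0.38 (SE 0.25) and 0.23 (SE 0.16).

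Of the 16 tested endothelial markers, 12 were higher and 4 lower in ventral tissue, with a median difference of 0.18. Cdh5, the endothelial cadherin, stood at 7.02 ± 0.27 in ventral and 6.96 ± 0.80 in dorsal tissue (SD, n = 4). Pecam1 was at 5.82 ± 0.13 in ventral and 5.45 ± 0.32 in dorsal tissue, and Emcn, a sialomucin of veins and capillaries, differed by 0.11 (SE 0.60). Ramp2, the co-receptor of adrenomedullin, and the arterial factor Sox17 differed by 0.41 (SE 0.22) and 0.32 (SE 0.17). Fli1, an ETS factor of endothelium and blood, went the other way, at -0.74 (SE 0.19, unadjusted p = 0.00633, adjusted p = 0.34). Of 6 lymphatic markers on the array 4 were tested. Prox1, the factor that sets lymphatic identity, differed by 0.048 (SE 0.30), Lyve1 by -0.11 (SE 0.31), Pdpn by -0.32 (SE 0.24) and Nr2f2, a factor of veins and also of mesenchyme, by 1.22 (SE 0.43, unadjusted p = 0.0254).

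Perivascular and smooth muscle markers were mostly higher in ventral tissue (11 of 12 tested, median difference 0.37). The pericyte gene Rgs5 ranged from 4.52 to 8.35 in ventral and from 3.68 to 4.32 in dorsal arrays (2.48, SE 0.55, adjusted p = 0.266), and Actg2, an actin of visceral muscle, differed by 1.99 (SE 0.32). Cspg4, also a pericyte gene but one of cartilage too, was lower, at 3.62 ± 0.27 in ventral and 4.41 ± 0.28 in dorsal tissue (SD, n = 4), and Pdgfrb differed by 0.29 (SE 0.27). Macrophage markers, from cells that can also express Flt1 and Vegfa, were higher in ventral tissue for 11 of 11 tested genes, with a list mean of 5.09 to 5.69 in ventral and 4.59 to 5.06 in dorsal arrays. Of 9 tested sympathetic and neuronal markers 6 were higher, and of 8 red cell and 3 liver markers 7 and 3 were lower. Dorsal replicate 4 carried most of the red cell and liver difference, with list means of 8.03 and 8.58. In replicate numbers 1 and 2 both list means were slightly higher in ventral tissue, and in number 3 both were slightly lower. The part of these cells in the differences of Vegfa and Kdr was not tested.

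**Figure D4:**
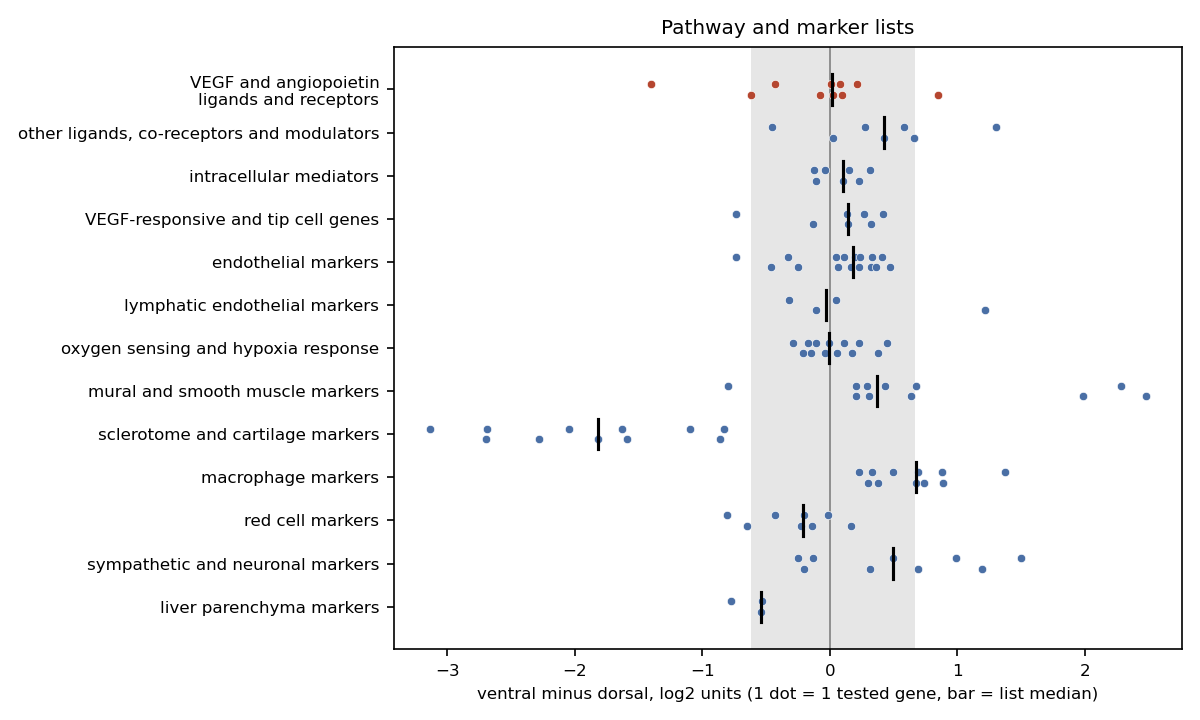
Ventral minus dorsal difference of each tested gene (dots) in the VEGF and angiopoietin set and in 12 pathway and marker lists, on the log2 scale, with the list median as a bar and the middle 95% of all tested genes in grey. Sclerotome and cartilage markers all lie below 0 and macrophage markers all above 0, while the VEGF and angiopoietin genes lie on both sides with a median near 0.

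The genes whose array-to-array pattern was most like that of a member were read from values centred on each tissue's mean over 8 arrays. For Angpt1 they were Usp10, F2rl3, Pwwp3a, Fut10 and Zc3h14 (r = 0.958 to 0.973). For Vegfa the nearest were Gm26567, Snora30, Scpep1, Tmc7 and Fam83g (r = 0.964 to 0.987), and for Kdr they were Ulk2, Ntan1, Eif4g3, Urgcp and Gmfb (r = 0.969 to 0.989). The mean of Kdr, Flt1, Tek and Tie1 was most like Gm10578, D16Ertd472e, Pigf, Supt5 and Aif1l (r = 0.97 to 0.991). None of these genes is in the endothelial list. These are the highest values among all tested genes and are given as a description.

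**Figure D5:**
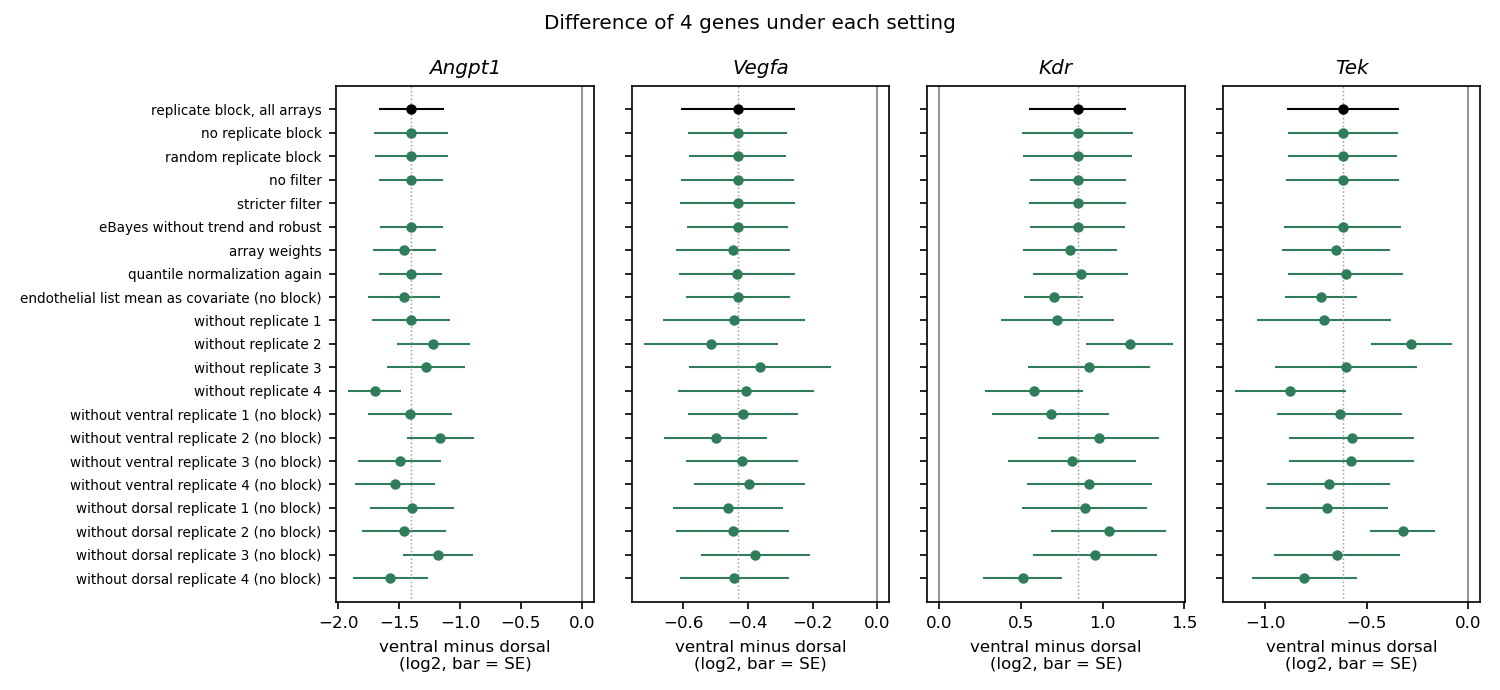
Ventral minus dorsal difference of Angpt1, Vegfa, Kdr and Tek (log2 scale, bars are the SE) in the fit with the replicate block (top) and under each alternative, including each replicate number or single array left out. Every value of Angpt1, Vegfa and Tek lies below 0 and every value of Kdr above 0, with Tek nearest to 0 without replicate number 2. Settings that change only the block, filter or moderation keep the same difference. For Angpt1 and Vegfa, which do not overlap between the tissues, leaving out arrays cannot change the sign. Angpt1 and Tek have no value under the stricter filter, which they did not pass.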

How the data were processed

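The deposited values are log2 intensities, made by the authors with Affymetrix Expression Console and RMA per the submitters' processing notes (versions not given in the sources used here). RMA equalises array distributions, so differences are relative to other genes of an array. Of 25429 rows named by Entrez number the platform table gave 1 symbol to 24675, several to 0 and none to 754, which were left out. Symbols were updated through a RefSeq table of GRCm38.p6.

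Genes above the array median on at least 4 of 8 arrays were tested: 12416. Ventral minus dorsal was fitted with limma 3.58.1 in R 4.3.3 (lmFit, eBayes with trend and robust estimation, two-sided) with a fixed block for replicate number and Benjamini-Hochberg adjustment over all tested genes. The block was kept because the labels take both tissues from the same embryos. Deviations of same-numbered arrays correlated at 0.11, 0.029, 0.022 and 0.12, against -0.13 to 0.10 for differently numbered arrays of the 2 tissues. Of 8 arrays, 5 were most like the array of their own number in the other tissue. The data alone do not settle the pairing. Whether numbers are separate embryos is not stated, and p-values then measure the spread between these samples. In simulated data on 12416 genes, 100 genes were changed by 1 log2 unit and 100 by 2, with independent noise. This comparison recovered 29% and 79% of them, and 4 unchanged genes were also called. These rates hold for that setting, and the real data may differ from it.

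The members and 12 further lists (149 genes on the array in all) were chosen with earlier results of these data known. Named were the 3 tested genes with the smallest p of each list and fixed genes (Pecam1, Cdh5, Emcn, Nrp1, Nrp2, Pgf, Vegfd, Ptprb, Hif1a, Epas1, Prox1, Lyve1, Dll4, Pdgfrb). Likeness was Pearson's r over 8 arrays. Alternatives were no block, a random block, other filters, plain moderation, array weights, renewed quantile normalization, an endothelial covariate and leaving out arrays. The number of arrays limits the precision.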

Additional observations from a re-analysis of the deposited data

Results flagged for a closer look

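Single arrays that stood far from the other 3 of their tissue were looked for in 56 named genes (112 groups of 4 arrays), and 10 groups held one, where chance alone gives about 1 in 20. One was a member of the pathway: Flt4 in dorsal replicate 2 at 4.21, beside 3.94 to 3.98 elsewhere in dorsal tissue. Kdr, Flt1, Tek, Tie1 and Angpt2 also had their highest dorsal value on that array, which had the highest endothelial mean of all arrays (5.62). In dorsal replicate 4 the liver genes Apoa1 (6.38), Apoa2 (10.1) and Trf (9.26) and the red cell gene Hemgn (8.16) stood apart, with the other dorsal arrays at 3.77 to 3.95, 4.14 to 4.54, 5.10 to 5.36 and 3.58 to 3.86. Prox1 in ventral replicate 1 was at 6.58, beside 3.37 to 3.86, in the array with the highest ventral Angpt2 and Kdr and the highest mean of sympathetic and neuronal genes (7.61). Sox17 in ventral replicate 2 was at 4.90 (others 4.49 to 4.54) and Pgf in the same array at 3.39 (others 2.68 to 2.80), still under the array median. Nck1 in ventral replicate 4 was at 5.08 (others 5.44 to 5.50) and Unc5b in dorsal replicate 1 at 3.29 (others 3.77 to 3.84).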

How the results depend on the processing

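Limma called 0 members in every setting, at a threshold of 0.05 on the adjusted p. Over up to 20 alternatives Angpt1 ranged from -1.70 to -1.16 (adjusted p 0.122 to 0.691), Vegfa from -0.51 to -0.36, Kdr from 0.51 to 1.17, Tek from -0.88 to -0.28 and Vegfb from 0.0075 to 0.18, each on its own side of 0. Settings that change only the block, the filter or the moderation cannot alter the difference itself. Because Angpt1 and Vegfa do not overlap between the tissues, leaving out arrays cannot change their sign either, so these settings do not test it. Without the replicate block the adjusted p was 0.201 for Angpt1, 0.519 for Vegfa, 0.578 for Kdr and 0.617 for Tek. The small differences changed sign: with array weights Tie1 was -0.032, and with the endothelial covariate Flt1 was -0.012 and Tie1 -0.067. With a replicate number left out (with the block) or a single array left out (with no block), Flt1 ranged from -0.17 to 0.25, Tie1 from -0.20 to 0.26, Angpt2 from -0.28 to 0.47, Vegfc from -0.10 to 0.31 and Flt4 from -0.15 to 0.042. Among list genes 0 were called with the block, 2 without it and 2 with a random block (Pax9 and Col2a1 in both), 3 under the stricter filter, 6 with the endothelial covariate, and 0 to 4 with a number or array left out. Over all tested genes the calls were 0 with the block, 4 without it, 4 with a random block, 10 under the stricter filter, 13 with the endothelial covariate, and 0 to 20 with a number or array left out. Weak signal limits Tek, Tie1, Flt1 and Flt4, and 4 arrays per tissue limit all differences. The stricter filter left 6 members untested (Flt1, Flt4, Angpt1, Angpt2, Tek and Tie1).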
